A study of Arabidopsis thaliana with 9 samples.

Results

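The 10 genes described here take up sulfate, mark sulfur shortage or reduce sulfate in Arabidopsis thaliana roots. They were named by gene identifier, as 10 of the 37547 genes in the files, with earlier results of these data known. They are 3 sulfate transporters (SULTR1.1, SULTR1.2 and SULTR2.1), 2 genes named SULFUR DEFICIENCY INDUCED (SDI1 and SDI2), 2 named RESPONSE TO LOW SULFUR (LSU1 and LSU2) and 3 adenosine 5′-phosphosulfate (APS) reductases (APR1, APR2 and APR3).

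RNA of wild-type Col-0 roots was sequenced in 9 libraries, 3 for each of 3 growth media. Cesium roots grew with 0.5 mM KCl and CsCl, whose amount the labels write as 0.3 mL, low-potassium roots with 0.025 mM KCl, and control roots with 0.5 mM KCl. The medium recipe in the labels held MgSO4 at 0.75 mM and sucrose, and no group was labelled as short of sulfate. The sources used here give no plant age. Libraries of a group are labelled as biological replicates, with no word on separate cultures, so the p-values speak for the spread among these libraries, part of which may be technical.

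Plants take sulfate from the soil through high-affinity transporters of the root surface, chiefly SULTR1.2 and, under sulfur shortage, also SULTR1.1. Inside the cell ATP sulfurylase (ATPS) turns sulfate into APS, APS reductase makes sulfite from it, and sulfite reductase (SIR) makes sulfide, which enters cysteine and then glutathione. Sulfur shortage is known to raise transcripts of SULTR1.1, SULTR1.2, SULTR2.1, the APS reductases, SDI1 and the LSU genes, through the transcription factor SLIM1 in many cases. Another layer is miR395, a microRNA made under sulfur shortage that acts on transcripts of SULTR2.1 and of several ATP sulfurylases.

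Values are the authors' FPKM, by name fragments scaled to transcript length and library size, though how libraries were scaled is not given. Levels are compared below between genes as well as between libraries. This is less certain for SDI2, APR1, APR2 and APR3, whose regions in the files also cover neighbouring genes. FPKM summed to 715298 to 845355 per library. Each library's values under 0.5 FPKM were set against the same genes in control replicate 1. The most common ratio put the relative depth at 97.3% to 102% of that library, if the authors' scaling is read as depth. Ratios far from 1 were left out, and 40.6% to 50.4% of the genes kept lay close to the most common ratio. The total number of reads is unknown. On the third principal component (12.2% of the variance) cesium replicate 3 lay far from its fellow cesium libraries, and with low-potassium replicate 3 it was lowest in xylem markers. Both libraries were therefore left out in 1 of the alternative fits. The shoot markers FAMA and MUTE were at 0 in every library and 2 of 8 shoot markers averaged 1 FPKM or more, while root hair, endodermis and xylem markers were all present. Photosynthesis markers summed to 910 to 1562 FPKM in cesium roots, 235 to 273 FPKM in low-potassium roots and 348 to 448 FPKM in control roots.

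In control roots the 10 genes spanned a wide range of levels. APR1 averaged 95.7 ± 7.06 FPKM and SULTR1.2 77.5 ± 14.7 FPKM (SD, n = 3), and their libraries overlapped. APR3 (52.6 ± 5.07 FPKM) and APR2 (50.3 ± 4.54 FPKM) came next and also overlapped. SULTR2.1 (31.4 FPKM), LSU2 (27.2), LSU1 (22.9), SDI2 (22.6) and SDI1 (17.2) each overlapped with its neighbour in that order. SULTR1.1 was lowest, at 2.87 ± 0.54 FPKM, and stood clear of SDI1.

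The order was different in the other media. In cesium roots APR1 (86.1 FPKM) and SULTR1.2 (85.2 FPKM) again led and overlapped, while SDI1 (4.21 FPKM) dropped clear of SDI2 (14.8 FPKM). In low-potassium roots SULTR1.2 alone led, at 297 ± 4.995 FPKM, with every library above every library of APR3 (61.1 FPKM) and APR1 (58.1 FPKM). SULTR2.1, ahead of both LSU genes and both SDI genes in the other 2 media, lay behind LSU1, LSU2 and SDI2 there, at 9.48 ± 1.01 FPKM. SULTR1.1 was last in every medium.

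**Figure D1:**
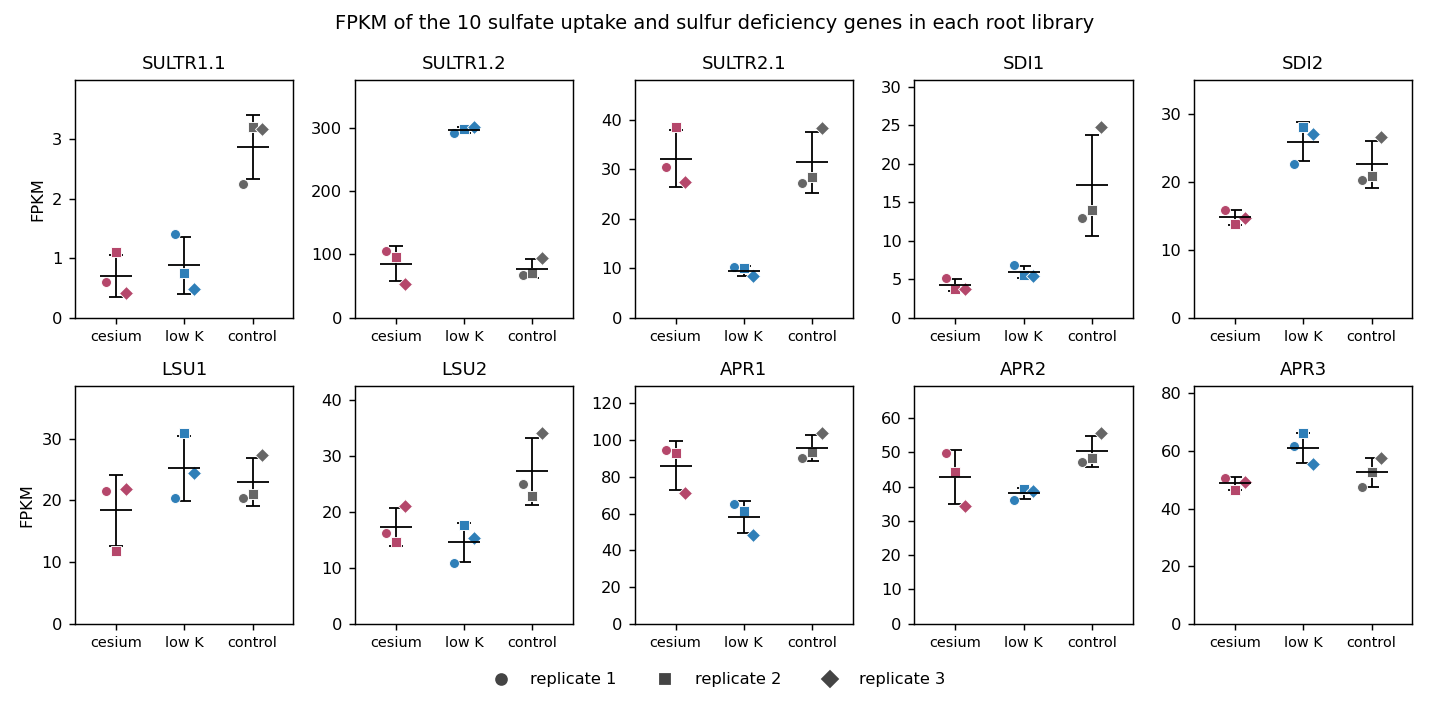
FPKM of the 10 genes in each library (y axis from 0, its own scale per gene), with cesium, low-potassium and control roots from left to right; marker shapes give the replicate and bars the mean ± SD (n = 3). SULTR1.2 stands at 292 to 302 FPKM in low-potassium roots with no other library above 105 FPKM, and SDI1 is at or below 6.83 FPKM in both stress media.

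Changes were tested with limma on log2(FPKM + 1), with Benjamini-Hochberg adjustment over all 19536 tested genes in each comparison and 0.05 as the threshold. Each log2 change below is on that scale, which understates the change of a low gene, with its standard error. All 10 genes passed the filter of a mean of 1 FPKM, but SULTR1.1 passed it only through the control libraries, so its lower level elsewhere is in part a condition of its being tested.

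With cesium, SULTR1.1, SDI1 and SDI2 fell and none of the 10 genes rose. By limma 0 of 10 were higher at an unadjusted p under 0.05 too, as by the q-values in the authors' deposited table. Over all tested genes 23.5% were called in that comparison (10.8% higher and 12.7% lower), against 3 of the 10. The total of 4591 called genes was 2907 without control replicate 2 and 3023 without control replicate 3, and the 3 genes were called in both. The median log2 change was -0.29 over the 10 genes and 0.02 over all genes tested. The libraries of both groups did not overlap for 4 of the 10 genes, these 3 and LSU2, and for 41.1% of all tested genes. With a log2 change of at least 1 also required, SULTR1.1 and SDI1 were left, 2 of 10 against 4.78% of all tested genes. These counts include SULTR1.1, whose lower level is in part a condition of its being tested. By the q-values in the authors' deposited table, SULTR1.1, SDI1, SDI2 and LSU2 passed, 4 of the 10, against 22.5% of its tested genes.

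Low potassium changed more of them. SULTR1.2 rose, while SULTR1.1, SULTR2.1, SDI1, LSU2, APR1 and APR2 fell. These are 7 of 10 genes, against 37.6% of all tested genes called (18.8% higher and 18.8% lower). The median log2 change was -0.56 over the 10 genes and 0.00185 over all tested genes. The same 7 genes did not overlap between the groups, as did 55.9% of all tested genes. A log2 change of at least 1 left 4 of them, SULTR1.1, SULTR1.2, SULTR2.1 and SDI1, against 6.12% of all tested genes. SULTR1.1, which passed the filter only through the control libraries, is again among those counted. The q-values of the authors' deposited table called 7 of the 10, against 30.1% of its tested genes.

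Set directly against low potassium, cesium roots had more SULTR2.1 and APR1 and less SULTR1.2, SDI2 and APR3. These 5 of 10 genes compare with 34.2% of all tested genes called (16.7% higher and 17.4% lower). For 6 genes the libraries did not overlap, these 5 and SDI1, and for 47.2% of all tested genes. The median log2 change was -0.22 over the 10 genes and -0.0024 over all genes tested. A log2 change of at least 1 left SULTR1.2 and SULTR2.1, 2 of 10 against 5.24% of all tested genes. All 3 comparisons share libraries in pairs, so they are not independent of each other.

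**Figure D2:**
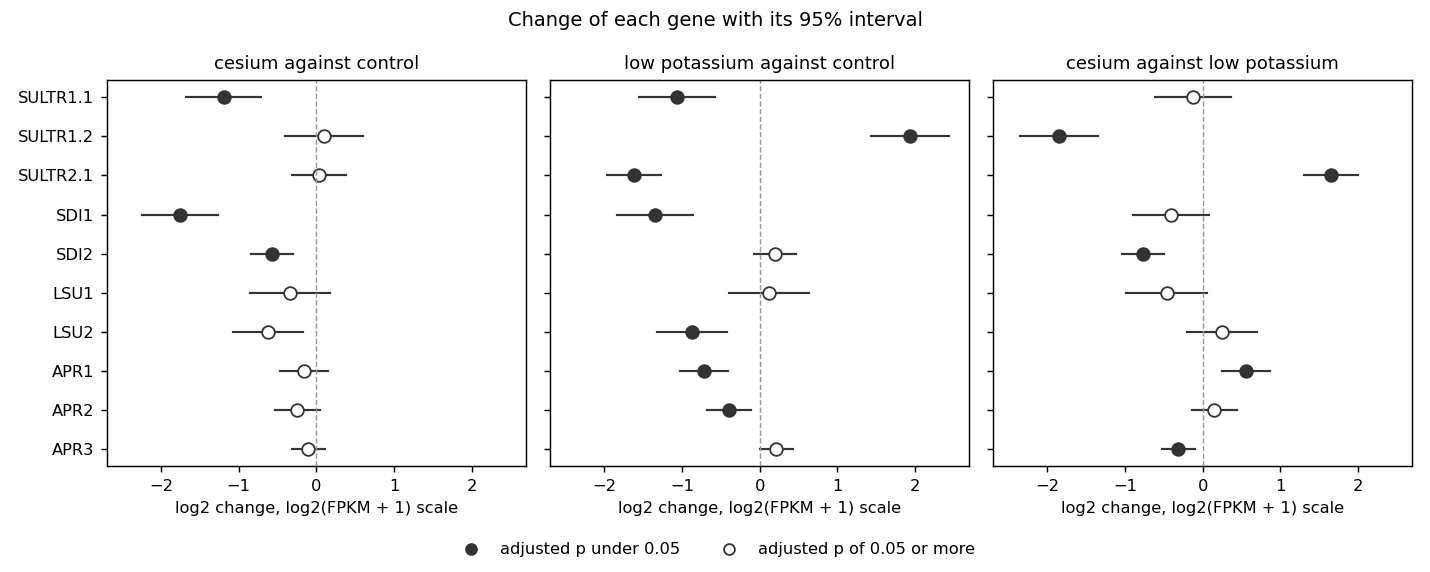
Log2 change of each of the 10 genes on the log2(FPKM + 1) scale (x axis) with its 95% interval, for cesium over control, low potassium over control and cesium over low potassium, from left to right; filled points had an adjusted p under 0.05. SULTR1.2 and SULTR2.1 lie near 0 for cesium against control and at 1.94 and -1.62 for low potassium against control, while SULTR1.1 and SDI1 lie below 0 against control in both media.

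SULTR1.1 is a high-affinity transporter of root hairs, epidermis and cortex that is strongly induced when sulfur is short. It lies on chromosome 4, 5500313 to 5506313 (AT4G08620, TAIR10). SULTR1.1 had 0.606, 1.09 and 0.410 FPKM in cesium roots, 1.40, 0.750 and 0.479 FPKM in low-potassium roots, and 2.25, 3.198 and 3.17 FPKM in control roots. Every library of either stress medium lay below every control library. It fell by 1.19 ± 0.22 with cesium (adjusted p = 0.00417, limma) and by 1.06 ± 0.22 with low potassium (adjusted p = 0.00476, limma). With a pseudocount of 0.1 in place of 1, these log2 changes were -1.96 and -1.70. Between the stress media the change was -0.13, with a 95% interval from -0.62 to 0.36 and overlapping libraries.

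At these levels SULTR1.1 is near the edge of what the libraries measured. The authors' interval for a library reached 0 in 2 of 3 cesium and 2 of 3 low-potassium libraries and in no control library. Root hair markers moved with it. The 6 markers summed to 107 to 165 FPKM in cesium roots, 70.7 to 225 FPKM in low-potassium roots and 228 to 369 FPKM in control roots, with 3 of 6 called lower in cesium and 5 of 6 in low potassium. The sum of the 4 endodermis markers was lower as well. It was 225 to 304 FPKM in cesium roots, 241 to 281 FPKM in low-potassium roots and 474 to 568 FPKM in control roots. CASP1 and CASP2 made up most of that sum and were called lower in both media, while SCR and MYB36 were called in neither. SCR averaged 26.6 FPKM in cesium roots, 21.7 FPKM in low-potassium roots and 22.1 FPKM in control roots. All of these markers were present in all groups, their part in the fall of SULTR1.1 was not tested, and in such bulk roots fewer cells of a type and less RNA per cell cannot be told apart.

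SULTR1.2, on chromosome 1, 29327515 to 29333220 (AT1G78000), carries most sulfate uptake in roots supplied with sulfate. It is expressed in the same outer cells as SULTR1.1. SULTR1.2 had 105, 96.7 and 53.8 FPKM in cesium roots, 292, 299 and 302 FPKM in low-potassium roots, and 67.5, 70.6 and 94.4 FPKM in control roots. The low-potassium libraries were nearly equal and far above all others, whereas cesium and control libraries overlapped. In low-potassium roots SULTR1.2 was 3.84-fold higher than in control roots (log2 change 1.94 ± 0.22, adjusted p = 0.000235, limma). Cesium roots had 0.287 of the low-potassium level (log2 change -1.85 ± 0.22, adjusted p = 0.000317, limma).

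Cesium did not change SULTR1.2 detectably against control, with a log2 change of 0.09 and a 95% interval from -0.41 to 0.60. Its sign turned without cesium replicate 1 (-0.086) and without cesium replicate 2 (-0.026). Cesium replicate 3 held the lowest value of all libraries, 53.8 FPKM, and without it the change was 0.39 (adjusted p = 0.0556, limma). Root hair markers summed to 225, 206 and 70.7 FPKM in low-potassium replicates 1, 2 and 3, and their part in the SULTR1.2 values was not tested.

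SULTR1.2 therefore made up nearly all of the group 1 transcripts in every medium. Of the summed FPKM of SULTR1.1, SULTR1.2 and SULTR1.3, its share was 96.9% to 97.6% in cesium libraries, 99.3% to 99.6% in low-potassium libraries and 91.8% to 92.5% in control libraries. SULTR1.3, a transporter of the phloem, fell by 0.73 ± 0.16 with cesium and by 1.40 ± 0.16 with low potassium (adjusted p = 0.00862 and 0.000197, limma). With a pseudocount of 0.1 in place of 1 the low-potassium change was -2.13. The 3 phloem markers summed to 81.3 to 132 FPKM in cesium roots, 50.3 to 80.8 FPKM in low-potassium roots and 62.6 to 70.0 FPKM in control roots, and APL and SUC2 were called higher with cesium. Their part in the SULTR1.3 values was not tested.

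SULTR2.1 is a low-affinity transporter of the vascular tissue that moves sulfate toward the shoot. It lies on chromosome 5, 3193017 to 3197136 (AT5G10180). SULTR2.1 had 30.5, 38.5 and 27.5 FPKM in cesium roots, 10.2, 9.95 and 8.33 FPKM in low-potassium roots, and 27.3, 28.4 and 38.4 FPKM in control roots. The low-potassium libraries stood well below all others, and cesium and control libraries overlapped throughout their range. Low-potassium roots had 0.302 of the control level (log2 change -1.62 ± 0.15, adjusted p = 8.29e-05, limma), and cesium roots 3.39-fold the low-potassium level (log2 change 1.65 ± 0.15, adjusted p = 8.39e-05, limma).

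For cesium against control the log2 change of SULTR2.1 was 0.04, with a 95% interval from -0.31 to 0.38. It turned to -0.095 without cesium replicate 2, to -0.052 without control replicate 1 and to -0.023 without control replicate 2. Xylem markers summed to 56.7 to 158 FPKM in cesium roots, 59.4 to 146 FPKM in low-potassium roots and 112 to 153 FPKM in control roots, and by limma 0 of the 6 were called in any comparison, at an unadjusted p under 0.05 either. Their part in the fall of SULTR2.1 was not tested.

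In low-potassium roots SULTR1.2 and SULTR2.1 thus moved in opposite directions. SULTR2.1 also holds a match to miR395, and the microRNA and the matched stretches are shown because they single out which transcripts of the pathway share it. The mature sequences are those of RefSeq (TAIR10.1), 5′ to 3′, with the seed, bases 2 to 8, in capitals. The matches are the transcript strand of the coding sequence, also from RefSeq, with the bases facing the seed in capitals.
miR395a, miR395d and miR395e: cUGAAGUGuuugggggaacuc
miR395b, miR395c and miR395f: cUGAAGUGuuuggggggacuc
SULTR2.1: aagttctcccaaaCACTTCAa
ATPS4: gagttcctccaaaCACTTCAt
ATPS1 and ATPS3: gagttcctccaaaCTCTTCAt

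The 6 mature sequences share 1 seed. A match was a stretch of the transcript strand that pairs with at most 4 mismatches, G:U pairs counted as mismatches. SULTR2.1 had 3 mismatches to the first sequence and 4 to the second, ATPS4 2 and 3, and ATPS1 and ATPS3 3 and 4 each. SULTR2.1 and ATPS4 had 0 mismatches in the seed, and ATPS1 and ATPS3 had 1. These 4 were the only ones with such a match among the 48 sulfur genes searched, and SULTR2.1 was the only 1 of the 10 genes described here. Of 27444 genes searched, 14 (0.051%) matched the first sequence and 9 (0.0328%) the second. On TAIR10.1 the SULTR2.1 match lies at chr5:3193268-3193288, plus strand. A match is a description of letters, and levels of miR395 were not analysed here.

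ATP sulfurylase catalyses the first step after uptake, and SULTR2.1, ATPS1, ATPS3 and ATPS4 all fell in low-potassium roots. In percent of the control mean, low-potassium libraries had 26.5 to 32.4 for SULTR2.1, 56.5 to 72.8 for ATPS1, 52.5 to 69.7 for ATPS3 and 57.9 to 75.3 for ATPS4. ATPS2, with no match, had 84.5 to 91.5 and missed the threshold (log2 change -0.19 ± 0.11, adjusted p = 0.203, limma). In cesium roots the same measure was 87.6 to 123 for SULTR2.1, 77.8 to 95.3 for ATPS1, 75.0 to 102 for ATPS3, 57.7 to 80.4 for ATPS4 and 92.7 to 121 for ATPS2. ATPS4 alone of these 5 fell with cesium, by 0.49 ± 0.14 (adjusted p = 0.0337, limma). That call was lost without cesium replicate 3 (adjusted p = 0.0580), low-potassium replicate 1 (0.0514) or control replicates 1, 2 or 3 (0.0663, 0.0739 and 0.109).

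SIR, which has no match, fell in low-potassium roots as well, by 0.48 ± 0.10 (adjusted p = 0.00459, limma). SDI1, LSU2, APR1 and APK2 have no match either and were also called lower there. APK2 averaged 86.0 FPKM in low-potassium roots against 157 FPKM in control roots, and LSU2 14.5 against 27.2 FPKM. Other genes without a match rose there, among them SULTR1.2 and SERAT2.1. The group of matched genes was set out after its values had been seen and has no test of its own.

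**Figure D3:**
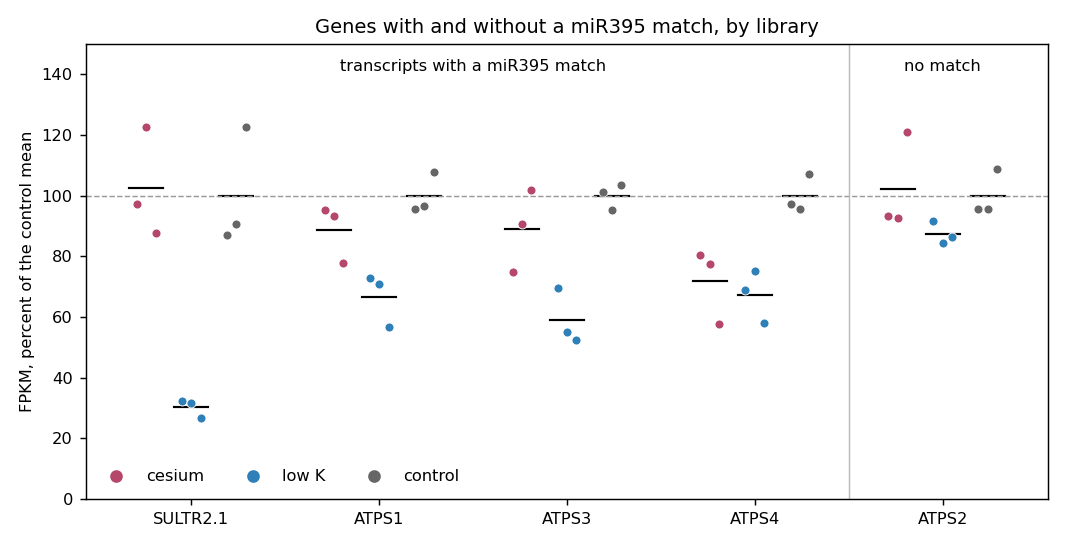
FPKM of SULTR2.1 and the 4 ATP sulfurylase genes in each library, in percent of the gene's control mean (y axis from 0), with cesium, low-potassium and control libraries from left to right and bars at group means (n = 3). All low-potassium libraries of the 4 matched genes lie at or below 75.3%, and those of ATPS2 at 84.5% to 91.5%. Of the genes without a match only ATPS2 is drawn.

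SDI1 (AT5G48850, chromosome 5, 19805437 to 19807853) encodes a repressor of glucosinolate synthesis and is a standard reporter of sulfur shortage. SDI1 had 5.14, 3.73 and 3.76 FPKM in cesium roots, 6.83, 5.51 and 5.36 FPKM in low-potassium roots, and 12.9, 14.0 and 24.7 FPKM in control roots. All stress libraries lay below all control libraries, as did their summed endodermis and root hair markers, whose part was not tested, and control replicate 3 was far above the other controls. SDI1 fell by 1.76 ± 0.22 with cesium (adjusted p = 0.000528, limma) and by 1.35 ± 0.22 with low potassium (adjusted p = 0.00143, limma). Cesium libraries were also all below low-potassium libraries, but that difference of -0.41 ± 0.22 did not pass (adjusted p = 0.172, limma). Without control replicate 3 it passed (adjusted p = 0.0434).

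SDI2, the related gene on chromosome 1 (AT1G04770), shares the glucosinolate role. SDI2 had 15.9, 13.8 and 14.6 FPKM in cesium roots, 22.6, 28.0 and 27.1 FPKM in low-potassium roots, and 20.3, 20.9 and 26.6 FPKM in control roots. Cesium libraries were the lowest, with no overlap with either other group, and low-potassium and control libraries overlapped. SDI2 fell by 0.57 ± 0.12 with cesium (adjusted p = 0.00818, limma), and was 0.77 ± 0.12 lower in cesium than in low-potassium roots (adjusted p = 0.00132, limma). For low potassium against control the log2 change was 0.20, with a 95% interval from -0.07 to 0.46. In low potassium SDI1 was therefore called lower and SDI2 was not. The region the files give for SDI2, 1334533 to 1337849, also covers the neighbour AT1G04760, and the sources used here do not say how reads were divided there.

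LSU1 and LSU2 encode small proteins that accumulate when sulfur is short and bind many partner proteins. LSU2 (AT5G24660, chromosome 5, 8443279 to 8444101) had 16.2, 14.6 and 21.1 FPKM in cesium roots, 10.8, 17.6 and 15.2 FPKM in low-potassium roots, and 24.9, 22.8 and 34.0 FPKM in control roots. All control libraries lay above all others. LSU2 fell by 0.87 ± 0.20 with low potassium (adjusted p = 0.00853, limma). With cesium the log2 change was -0.62 ± 0.20, which missed the threshold with an adjusted p of 0.0501 by limma.

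This LSU2 change in cesium roots passed under 9 of 20 alternatives, among them without cesium replicate 3 (adjusted p = 0.0229), without low-potassium replicate 1 (0.0341) or replicate 2 (0.0496), and by the q-value of the authors' deposited table (0.000921). Over its 20 alternatives the adjusted p ran from 0.000921 to 0.167. LSU1 (AT3G49580, chromosome 3, 18374908 to 18375940) had 21.5, 11.8 and 21.9 FPKM in cesium roots, 20.3, 30.9 and 24.5 FPKM in low-potassium roots, and 20.4, 21.1 and 27.4 FPKM in control roots. All 3 groups overlapped and LSU1 was called in no comparison. Its log2 change against control had a 95% interval from -0.86 to 0.18 with cesium and from -0.39 to 0.64 with low potassium, so a fall as large as that of LSU2 was within the first interval. The sign of the low-potassium change turned without low-potassium replicate 2 (-0.027).

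The sequence around the annotated start of all 10 genes was searched for GAGAC, the core of a sulfur-responsive element first described for SULTR1.1. Windows ran from 250 bases before to 50 after the annotated start, on both strands. Only SDI1 (positions -23 and 9 from the start) and LSU2 (positions 5 and 26) of the 10 genes held it, and 9011 of 27443 genes did (32.8%). The 2 of 10 members were thus no more than that share, a count too small to set them apart from all genes. Of these matches only the one at -23 in SDI1 lies before the annotated start. SULTR1.1, SULTR2.1, APR1 and APR2 also fell in low potassium and held no match. The other 8 windows say only that these letters are not in them, not whether the element acts elsewhere. Both windows are shown with the motif, or its reverse complement GTCTC, in capitals, from RefSeq (TAIR10.1), minus strand, at chr5:19807804-19808103 for SDI1 and chr5:8444052-8444351 for LSU2.
SDI1: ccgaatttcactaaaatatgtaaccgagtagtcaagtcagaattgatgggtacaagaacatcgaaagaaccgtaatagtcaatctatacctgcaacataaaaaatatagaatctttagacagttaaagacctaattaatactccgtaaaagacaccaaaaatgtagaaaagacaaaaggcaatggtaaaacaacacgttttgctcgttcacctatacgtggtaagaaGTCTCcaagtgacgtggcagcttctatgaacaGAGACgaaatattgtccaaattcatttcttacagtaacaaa
LSU2: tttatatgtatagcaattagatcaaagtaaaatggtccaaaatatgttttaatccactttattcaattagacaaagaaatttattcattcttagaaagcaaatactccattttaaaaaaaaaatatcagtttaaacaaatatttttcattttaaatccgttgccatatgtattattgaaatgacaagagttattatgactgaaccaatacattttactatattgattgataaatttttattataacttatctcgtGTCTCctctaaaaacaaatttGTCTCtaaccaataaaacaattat

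The APS reductases carry out the reduction of APS, a step known for strong control over flux through the pathway. APR1 (AT4G04610) had 94.6, 92.8 and 71.0 FPKM in cesium roots, 65.1, 61.2 and 48.2 FPKM in low-potassium roots, and 90.1, 93.3 and 104 FPKM in control roots. Low-potassium libraries were below all others, and cesium replicate 3 was the lowest of the rest. APR1 fell by 0.72 ± 0.14 with low potassium (adjusted p = 0.00366, limma). It was 0.56 ± 0.14 higher in cesium than in low-potassium roots (adjusted p = 0.0125, limma). For cesium against control its log2 change of -0.16 had a 95% interval from -0.47 to 0.15.

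APR2 (AT1G62180), the isoform known to contribute most APS reductase activity in Arabidopsis, had 49.8, 44.1 and 34.2 FPKM in cesium roots, 36.2, 39.2 and 38.6 FPKM in low-potassium roots, and 47.1, 48.3 and 55.5 FPKM in control roots. Low-potassium libraries lay below all controls, and cesium libraries overlapped with both groups. APR2 fell by 0.39 ± 0.13 with low potassium (adjusted p = 0.0357, limma). This call was lost when any 1 of the low-potassium replicates 1, 2 and 3 (adjusted p = 0.0996, 0.0710 and 0.0757) or control replicates 1, 2 and 3 (0.0565, 0.0688 and 0.116) was left out. Without cesium replicate 3, APR2 was higher in cesium than in low-potassium roots by 0.30 (adjusted p = 0.0358), against 0.15 and an adjusted p of 0.392 with it.

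APR3 (AT4G21990) differed from its paralogs in low potassium. APR3 had 50.6, 46.4 and 49.4 FPKM in cesium roots, 61.7, 66.1 and 55.6 FPKM in low-potassium roots, and 47.5, 52.6 and 57.6 FPKM in control roots. Low-potassium libraries were high but overlapped with controls, and their log2 change of 0.21 ± 0.09 missed the threshold (adjusted p = 0.101, limma). It was 0.32 ± 0.09 lower in cesium than in low-potassium roots (adjusted p = 0.0269, limma). That call was lost without cesium replicate 2 (adjusted p = 0.0857) or without low-potassium replicate 1 or 2 (0.0738 and 0.0990). The low-potassium change of APR3 passed without cesium replicate 3 and low-potassium replicate 3 together (adjusted p = 0.0467).

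The makeup of APS reductase transcripts was accordingly different in low potassium. APR1 made up 45.9% to 50.6% of their summed FPKM in cesium libraries, 33.8% to 39.9% in low-potassium libraries and 47.8% to 48.8% in control libraries. APR3 made up 25.3% to 31.9%, 37.9% to 39.7% and 25.7% to 27.1% in cesium, low-potassium and control libraries. Low-potassium libraries did not overlap with the others in either share. The longest identical stretch between the longest transcripts of APR1 and APR3 is 41 bases. No stretch of 50 bases of any of the 10 genes occurs in the longest transcript of another protein-coding gene. Shorter transcripts of other genes and noncoding transcripts were not searched. The regions the files give for all 3 APS reductases also cover a neighbouring gene.

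Among the 9 other sulfate transporters, 1 rose and 3 fell with cesium, and 2 rose and 1 fell with low potassium. These are 4 and 3 of 9 genes, against 23.5% and 37.6% of all tested genes. The authors' q-values gave 2 higher and 4 lower with cesium, and 3 higher and 1 lower with low potassium. Of their tested genes 22.5% and 30.1% were called. The calls by q-value alone were SULTR3.5, higher with cesium (q = 0.0350) and low potassium (q = 0.00653), and SULTR3.1, lower with cesium (q = 0.0164). SULTR3.4, also described as a phosphate transporter of the shoot, rose by 0.74 ± 0.13 with cesium (adjusted p = 0.00377, limma) and by 1.47 ± 0.13 with low potassium (adjusted p = 6.12e-05, limma). SULTR3.1, a chloroplast sulfate transporter, rose by 0.93 ± 0.23 with low potassium, to 4.17 FPKM against 1.71 FPKM in control roots. SULTR1.3, SULTR2.2 (-0.62 ± 0.14) and SULTR3.3 (-0.77 ± 0.15) fell with cesium, and all 3 are low, at 1.67 to 3.53 FPKM in cesium roots. The vacuolar transporters SULTR4.1 and SULTR4.2 were called in no comparison. Set against low potassium, cesium roots had more SULTR1.3 (0.66 ± 0.16) and less SULTR2.2, SULTR3.1, SULTR3.3 and SULTR3.4 (-0.79, -1.34, -0.52 and -0.73). The SULTR3.3 difference was lost without cesium replicates 1 or 2 (adjusted p = 0.0825 and 0.0829) or low-potassium replicates 1 or 2 (0.0941 and 0.0584). The median log2 change of the 9 was -0.10 with cesium and 0.17 with low potassium.

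Of the 5 genes for ATP sulfurylase and sulfite reductase, 0 rose and 1 fell with cesium, and 0 rose and 4 fell with low potassium, against 12.7% and 18.8% of all tested genes lower. At an unadjusted p under 0.05 by limma, and by the q-values in the authors' deposited table, 0 were higher in either medium. The median log2 change was -0.16 with cesium and -0.57 with low potassium. Besides SIR, ATPS1 fell by 0.59 ± 0.12, ATPS3 by 0.67 ± 0.12 and ATPS4 by 0.57 ± 0.14 in low-potassium roots (adjusted p = 0.00495, 0.00308 and 0.0117, limma). Set directly against low potassium, cesium roots had more ATPS1, ATPS3 and SIR (log2 changes 0.41, 0.51 and 0.41). The ATPS1 difference between cesium and low potassium was lost without cesium replicates 1 or 2 or low-potassium replicate 3 (adjusted p = 0.0732, 0.0805 and 0.0815).

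APS kinases divert APS to sulfated compounds such as glucosinolates. Of the 4, APK4 rose by 0.88 ± 0.09 with cesium, with 12.6, 10.7 and 11.9 FPKM in cesium roots against 5.53, 6.26 and 5.90 FPKM in control roots (adjusted p = 0.000143, limma). It was also 0.96 ± 0.09 higher in cesium than in low-potassium roots. APK2 (-0.87 ± 0.22) and APK3 (-0.32 ± 0.09) fell with low potassium. Called were thus 1 of 4 with cesium and 2 of 4 with low potassium, against 23.5% and 37.6% of all tested genes. With cesium APK2 was not called by limma. It had 136, 127 and 72.1 FPKM there, all below the 157, 148 and 165 FPKM of control roots. By the authors' deposited table APK2 was lower with cesium (log2 fold change -0.49, q = 0.00243). The APK3 call was lost without low-potassium replicates 1 or 2 (adjusted p = 0.0619 and 0.0583) or control replicates 2 or 3 (0.0674 and 0.0541).

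Of 12 genes of cysteine and glutathione synthesis 10 were tested. With cesium 3 rose and 0 fell, and with low potassium 2 rose and 1 fell. These are 3 of 10 genes in each, against 23.5% and 37.6% of all tested genes. At an unadjusted p under 0.05 by limma 2 were lower with cesium, against 1 by the q-values in the authors' deposited table. SERAT2.1, a plastid serine acetyltransferase that makes the carbon acceptor for sulfide, rose by 1.34 ± 0.10 with low potassium (adjusted p = 2.60e-05, limma). It had 159, 174 and 173 FPKM there, against 69.3, 66.7 and 62.3 FPKM in control roots. SERAT3.1 rose by 0.75 ± 0.13 in the same roots, and OASC, the mitochondrial cysteine synthase, fell by 0.34 ± 0.09.

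In cesium roots SERAT3.1 (0.49 ± 0.13), GSH1 (0.43 ± 0.13), the first enzyme of glutathione synthesis, and SERAT1.1 (0.32 ± 0.09) rose. These calls were fragile. GSH1 and SERAT1.1 each lost theirs when any 1 of 7 libraries was left out, all but cesium and low-potassium replicates 3, with adjusted p from 0.0510 to 0.127. SERAT3.1 lost its call without cesium replicate 1 (adjusted p = 0.0686) or without control replicates 1 or 2 (0.0616 and 0.0821). None of the 3 passed without cesium replicate 1 or without control replicates 1 or 2. Set against low potassium, cesium roots had more GSH1 (0.54 ± 0.13) and OASC (0.30 ± 0.09) and less SERAT2.1 (-1.03 ± 0.10). The OASC difference was lost without cesium replicate 1 or low-potassium replicate 3 (adjusted p = 0.0698 and 0.0763).

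Of 8 other genes known from sulfur shortage 7 were tested. Called were 1 with cesium, 2 with low potassium and 3 between the media, against 23.5%, 37.6% and 34.2% of all tested genes. With cesium only SHM7, a serine hydroxymethyltransferase, fell, by 0.37 ± 0.10. Its call was lost without cesium replicate 2 or control replicates 2 or 3 (adjusted p = 0.0729, 0.0567 and 0.0824). In low potassium BGLU30, a beta-glucosidase of glucosinolate breakdown, rose to 3.54 FPKM, against 0.549 FPKM in control roots (log2 change 1.54 ± 0.18, or 2.49 with a pseudocount of 0.1). BGLU30 passed the filter only through the low-potassium libraries. GGCT2.1, which degrades glutathione, fell by 0.65 ± 0.22 with low potassium, and lost this call when any 1 of 6 libraries was left out (cesium replicate 2, all low-potassium replicates, and control replicates 2 and 3, adjusted p = 0.0583 to 0.145). Cesium roots had less BGLU30 (-1.46 ± 0.18) and SHM7 (-0.53 ± 0.10) and more GGCT2.1 (0.64 ± 0.22) than low-potassium roots. The GGCT2.1 difference was lost without cesium replicates 1 or 2, any low-potassium replicate or control replicate 2 (adjusted p = 0.0695 to 0.146).

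LSU3, LSU4, NSP5 and SLIM1 were called in no comparison by limma, at an unadjusted p under 0.05 either. NSP5 was higher with low potassium by the authors' deposited table (log2 fold change 0.37, q = 0.0369). SLIM1 had 9.64 ± 0.97 FPKM in cesium roots, 10.6 ± 0.37 FPKM in low-potassium roots and 9.02 ± 0.86 FPKM in control roots. The files' regions of SULTR2.2, SULTR3.2, SULTR3.4, SULTR4.2, ATPS2, ATPS3, ATPS4, APK3, SERAT2.1, SERAT2.2, SERAT3.2, OASB and SLIM1 also cover neighbouring genes. So does that of the endodermis marker CASP1. The 7 tested genes had a median log2 change of -0.01 with cesium and 0.17 with low potassium.

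**Figure D4:**
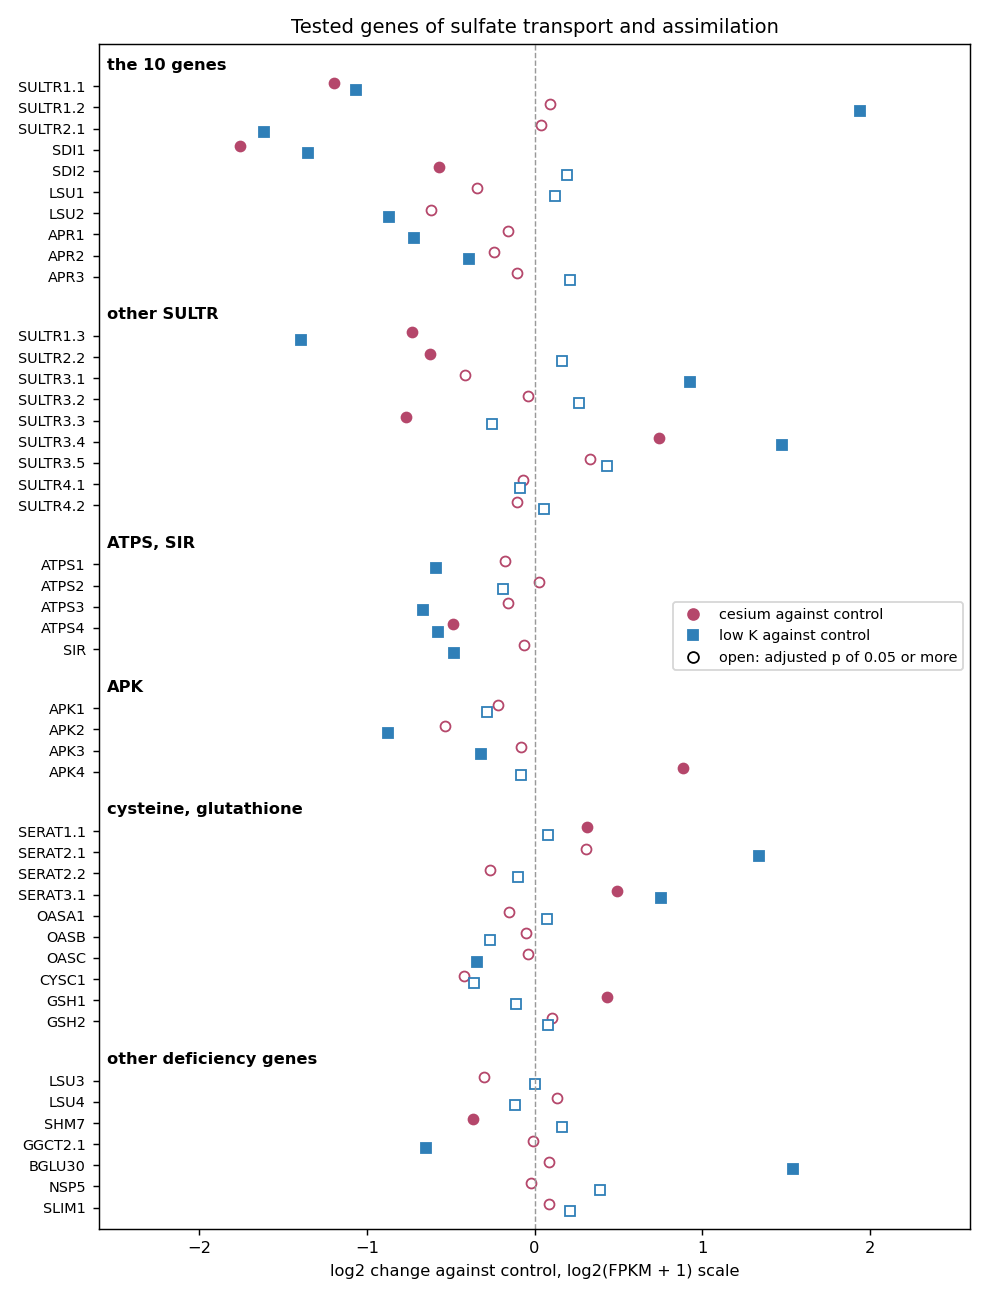
Log2 change against control on the log2(FPKM + 1) scale (x axis) of the 10 genes and of the tested genes of 5 wider lists; circles are cesium and squares low potassium, filled where the adjusted p was under 0.05. In low potassium SULTR1.2 (1.94), BGLU30 (1.54), SULTR3.4 (1.47) and SERAT2.1 (1.34) lie farthest to the right, while 4 of 5 genes of ATP sulfurylase and sulfite reductase lie below 0 as filled squares.

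Genes with the pattern most like a member were sought among the 15013 genes that averaged 5 FPKM or more. The measure was the root mean square difference of centred log2(FPKM + 1) over the 9 libraries, given as a description. SULTR1.1 was closest to AT5G24100 (0.130), PME2 (0.144), CLC-B (0.145) and AT2G41970 (0.152). This scale understates the falls of SULTR1.1, which averaged 0.704, 0.877 and 2.87 FPKM in cesium, low-potassium and control roots. With a pseudocount of 0.1 its log2 changes against control were -1.96 with cesium and -1.70 with low potassium. The genes named, all at higher levels, therefore need not share its fold change. CLC-B, a chloride channel family gene, averaged 44.2 FPKM in cesium roots, 45.1 FPKM in low-potassium roots and 93.9 FPKM in control roots. SDI1 was closest to ERD9 (0.183), AT2G21100 (0.206), AT3G18170 (0.218) and AT1G78990 (0.230). ERD9, a glutathione transferase gene, averaged 7.08 FPKM in cesium roots, 7.85 FPKM in low-potassium roots and 27.1 FPKM in control roots.

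LSU1 was closest to AT4G13220 (0.179), LSU3 (0.183), RUG1 (0.192) and CBL1 (0.193). LSU3 lies near it on chromosome 3 and shares a longest identical stretch of 23 bases with it. APR3 was closest to PHYC (0.0566), AT1G68160 (0.0571), AT1G33780 (0.0574) and GUN1 (0.0591), all of which vary little. Among the 10 genes, APR1 and APR2 were most alike (0.219), followed by SDI2 and APR3 (0.242) and by SDI2 and LSU1 (0.243). SULTR1.1 and SDI1 differed by 0.365, SDI1 and SDI2 by 0.693, LSU1 and LSU2 by 0.452, and the farthest pair was SULTR1.2 and SULTR2.1 at 1.68. The value for SULTR1.1 and SDI1 also rests on the scale that understates the changes of SULTR1.1.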

How the data were processed

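RNA-seq of Col-0 roots gave 9 libraries in 3 groups, as the labels give them. Named in the submitters' processing notes are Cufflinks 2.2.1, STAR 2.5.0c, Bowtie2 2.3.4.1 and the build TAIR10, whose roles the sources used here do not give. Per gene, the authors deposited FPKM, and a table of log2 fold changes with p-values and q-values of their own test. The sources used here do not say how libraries were scaled. Strand-specific libraries were made, per the labels' protocols.

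Of 37547 genes, 5 with a failed status were dropped, none of them a member. In R 4.3.3, limma-trend (version 3.58.1) was fitted to log2(FPKM + 1) as a one-way model of all 9 libraries, for genes averaging 1 FPKM or more, with Benjamini-Hochberg adjustment over 19536 genes. A count model was not used, FPKM being no counts. Steps were tested on simulated data. The 10 members and the wider gene lists were chosen with earlier results of these data known. All members were named, with up to 4 called genes of smallest adjusted p per wider list and comparison, all calls of a list with 5 or fewer, and 4 like-patterned genes for SULTR1.1, SDI1, LSU1 and APR3. Genes named with no call in a list are named for their role. Identifiers matched RefSeq (TAIR10.1) for 37045 genes. Coordinates are TAIR10, counted from 1, as the files give them. Alternatives were other pseudocounts, filters, scalings and fits, leaving out each library, a replicate block and the authors' q-values. Leaving out cesium replicate 3 and low-potassium replicate 3 together was added after the data were seen. Tables and plots were made with numpy 2.4.6, pandas 2.3.3 and matplotlib 3.10.9 under Python 3.11.15.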

Additional observations from a re-analysis of the deposited data

How the results depend on the processing

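Of 69 named log2 changes, 47 kept their call and direction under every alternative they could be given, 14 lost a call under at least 1, 4 gained one and 4, none of them called, changed sign. Leaving out each library in turn, SULTR1.2 with cesium ran from -0.086 (without cesium replicate 1; -0.026 without cesium replicate 2) to 0.39, and SULTR2.1 with cesium from -0.095 (without cesium replicate 2; -0.052 and -0.023 without control replicates 1 and 2) to 0.19. LSU1 in low potassium ran from -0.027 (without low-potassium replicate 2) to 0.26, and SULTR1.1 in cesium against low potassium from -0.29 to 0.063 (without low-potassium replicate 1). Requiring a log2 change of at least 1 left 934 genes with cesium, 1196 with low potassium and 1024 between the media, and 2, 4 and 2 of the 10 members. Leaving out each library in turn gave 2907 to 4830, 5339 to 8688 and 4841 to 6614 genes and 3 to 4, 6 to 7 and 4 to 6 members. The lowest cesium counts were without control replicate 2 (2907) and control replicate 3 (3023), and the cause was not tested. SULTR1.1, SULTR1.3, SULTR2.2, SULTR3.1, GGCT2.1 and BGLU30 fell outside the filter of 5 FPKM and have no value there. Without cesium replicate 3 and low-potassium replicate 3 together, 5136, 7444 and 5971 genes and 4, 8 and 5 members were called.

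The labels do not say whether the replicate numbers pair the samples, and deviations within groups of 3 libraries cannot settle it. Deviations of same-numbered libraries correlated at -0.12 to 0.28, with 3 of 9 pairs over 0.1. The highest, 0.28, was between cesium replicate 3 and low-potassium replicate 3. A fit with the replicate block called 4154, 6729 and 6095 genes and 4, 6 and 4 members, and over the named changes it lost 5 calls and gained 1. Lost were SERAT1.1 with cesium (adjusted p = 0.0572, limma), APR2 (0.0620) and GGCT2.1 (0.0712) with low potassium, and APR3 (0.0538) and GGCT2.1 (0.0807) between the media, and gained was LSU2 with cesium (0.0317). Read totals are unknown, so the authors' interval for each library is the only measure of precision used for single values.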
